A study of Mus musculus with 12 samples.

Results

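The 9 genes described here encode transcription factors grouped under the heading of lymphatic endothelial fate. They are the homeobox factors Prox1 and Hhex, the SOXF factors Sox18, Sox17 and Sox7, and the orphan nuclear receptors Nr2f2 and Nr2f1. The others are the leucine zipper factor Maf and the T-box factor Tbx1. Membership is by gene name. Each had 1 row of its own among 30807 genes of the array, and all 9 passed the filter on dim values that left 19712 genes for testing.

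Lymphatic endothelium arises in the mouse embryo mainly from venous endothelium. There SOX18 and NR2F2 switch on Prox1, and PROX1 then holds the lymphatic programme for life. SOX17 is known for its part in arterial endothelium. NR2F2 is known as the venous counterpart, and it also binds PROX1 as a partner.

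RNA came from endothelial cells of ear skin of C57BL6 mice, 5 weeks old, all carrying the reporter transgene Tg(Prox1-EGFP)KY221Gsat, in which Prox1 regulatory sequence drives a green fluorescent protein. PECAM1+ cells were enriched on beads and sorted. Lymphatic endothelial cells (LEC), positive for PDPN and Prox1-GFP, were split by LYVE1 staining: cap LEC, of capillaries, were LYVE1 high, pre-col LEC, of pre-collecting vessels, were intermediate, and col LEC, of collecting vessels, were low or negative. Blood endothelial cells (BEC) were PECAM1+ and negative for PDPN, Prox1-GFP and LYVE1. Each of the 4 groups had 3 Affymetrix arrays labelled as biological replicates, and no source used here says whether a replicate was 1 mouse or a pool. The p-values measure the spread between these arrays. Because Prox1 reporter signal defined the gate between LEC and BEC, the level of Prox1 against BEC is a description without a test. Whether transcripts of the transgene reach the Prox1 probes was not tested.

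Values are log2 RMA values, on which 1 unit is a doubling of signal, and levels were not compared between genes. Differences between groups and their intervals are set side by side across genes, without a test between genes. The median of all rows lay between 6.06 and 6.17 on the 12 arrays, and 75% of the negative control rows lay below 7.04 to 7.44, and 95% of them below 8.92 to 9.34. Values near 6 to 7.4 thus carry little signal, and the values of Nr2f1, Hhex, Tbx1 and Sox7 in part or all of the groups lie within the upper tail of these controls. Across the genes tested, arrays correlated at 0.971 to 0.988 within a group, at 0.973 to 0.989 between LEC groups and at 0.904 to 0.923 between LEC and BEC. BEC replicate 1 stood apart in lymphatic markers. The mean of 6 measured markers, Prox1 among them, was 8.24 there, against 7.11 and 7.21 in BEC replicates 2 and 3. Mmrn1 was at 9.84 there, against 6.55 and 6.52. Pre-col LEC replicate 1 stood apart in mural markers, genes of pericytes and smooth muscle (list mean 8.20, against 7.36 and 7.10 in replicates 2 and 3), and of fibroblasts (8.11, against 6.70 and 6.81).

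Of the 9 genes, 5 had an entry in the RefSeq promoter table of build GRCm38.p6, and Maf, Sox17, Sox7 and Sox18 had none. Whether promoter sequence bears on the levels of the members was not tested. The 250 bases before the outermost annotated start are shown for Prox1 (chr1:190170828-190171077, minus strand), Nr2f2 (chr7:70366747-70366996, minus strand) and Tbx1 (chr16:18590672-18590921, minus strand), which were all higher in LEC, and for Nr2f1 (chr13:78198874-78199123, minus strand) and Hhex (chr19:37434591-37434840, plus strand), which were not called. Capitals mark matches, on either strand, to the motifs described next.
Prox1: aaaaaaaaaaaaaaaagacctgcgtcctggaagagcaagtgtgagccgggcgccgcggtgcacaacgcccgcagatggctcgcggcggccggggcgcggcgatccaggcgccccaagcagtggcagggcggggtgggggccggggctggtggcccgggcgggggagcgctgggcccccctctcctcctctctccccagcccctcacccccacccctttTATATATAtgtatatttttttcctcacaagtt
Nr2f2: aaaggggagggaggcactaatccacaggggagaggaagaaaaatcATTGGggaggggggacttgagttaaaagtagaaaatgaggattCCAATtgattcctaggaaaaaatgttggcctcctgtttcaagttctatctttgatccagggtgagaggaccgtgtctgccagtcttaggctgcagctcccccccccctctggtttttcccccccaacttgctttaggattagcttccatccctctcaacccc
Tbx1: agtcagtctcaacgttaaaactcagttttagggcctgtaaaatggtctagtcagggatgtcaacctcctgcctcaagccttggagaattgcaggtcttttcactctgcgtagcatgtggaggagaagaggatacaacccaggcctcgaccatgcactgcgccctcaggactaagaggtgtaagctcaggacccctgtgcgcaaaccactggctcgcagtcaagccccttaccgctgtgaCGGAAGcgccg
Nr2f1: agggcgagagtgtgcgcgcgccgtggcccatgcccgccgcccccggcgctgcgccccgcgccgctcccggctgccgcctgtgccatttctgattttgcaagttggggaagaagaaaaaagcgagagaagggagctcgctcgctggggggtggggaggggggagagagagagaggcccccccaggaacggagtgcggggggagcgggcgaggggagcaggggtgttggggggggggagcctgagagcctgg
Hhex: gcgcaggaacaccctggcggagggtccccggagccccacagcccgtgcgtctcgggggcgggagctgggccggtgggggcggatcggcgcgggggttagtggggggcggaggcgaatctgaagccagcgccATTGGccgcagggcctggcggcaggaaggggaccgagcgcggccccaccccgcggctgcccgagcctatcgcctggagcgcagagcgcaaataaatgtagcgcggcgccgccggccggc

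The Prox1 window holds overlapping TATATA matches that begin 32 and 30 bases before the start, and 5.25% of all 32851 promoter windows hold this motif. The Nr2f2 window holds the sequence CCAAT on the gene's strand 162 bases before the start and its reverse complement 205 bases before it (33.8% of all windows). The Tbx1 window holds CGGAAG, a core recognised by ETS factors, 11 bases before the start (13.6% of all windows). The Hhex window holds the reverse complement of CCAAT 119 bases before the start, and no searched motif lies in the Nr2f1 window. Motifs of the members' own families were searched on both strands as well, and none is in these 5 windows: the SOX motif ACAAAG (16.5% of all windows) and its variant ACAATG (10.7% of all windows), the nuclear receptor site AGGTCA (14% of all windows), the MAF site TGCTGA (16.1% of all windows) and the T-box motif AGGTGTGA (1.12% of all windows). The GATA motif AGATAA (9.99% of all windows) is also absent. The motifs found in these windows were all added to the search after the sequences were seen. The shares of all windows that hold them are thus a description and not a test. GC content was 64.8% in the Prox1 window, 50% in that of Nr2f2, 54.4% in that of Tbx1, 72.0% in that of Nr2f1 and 76% in that of Hhex, against a median of 52.4% over all windows.

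**Figure D1:**
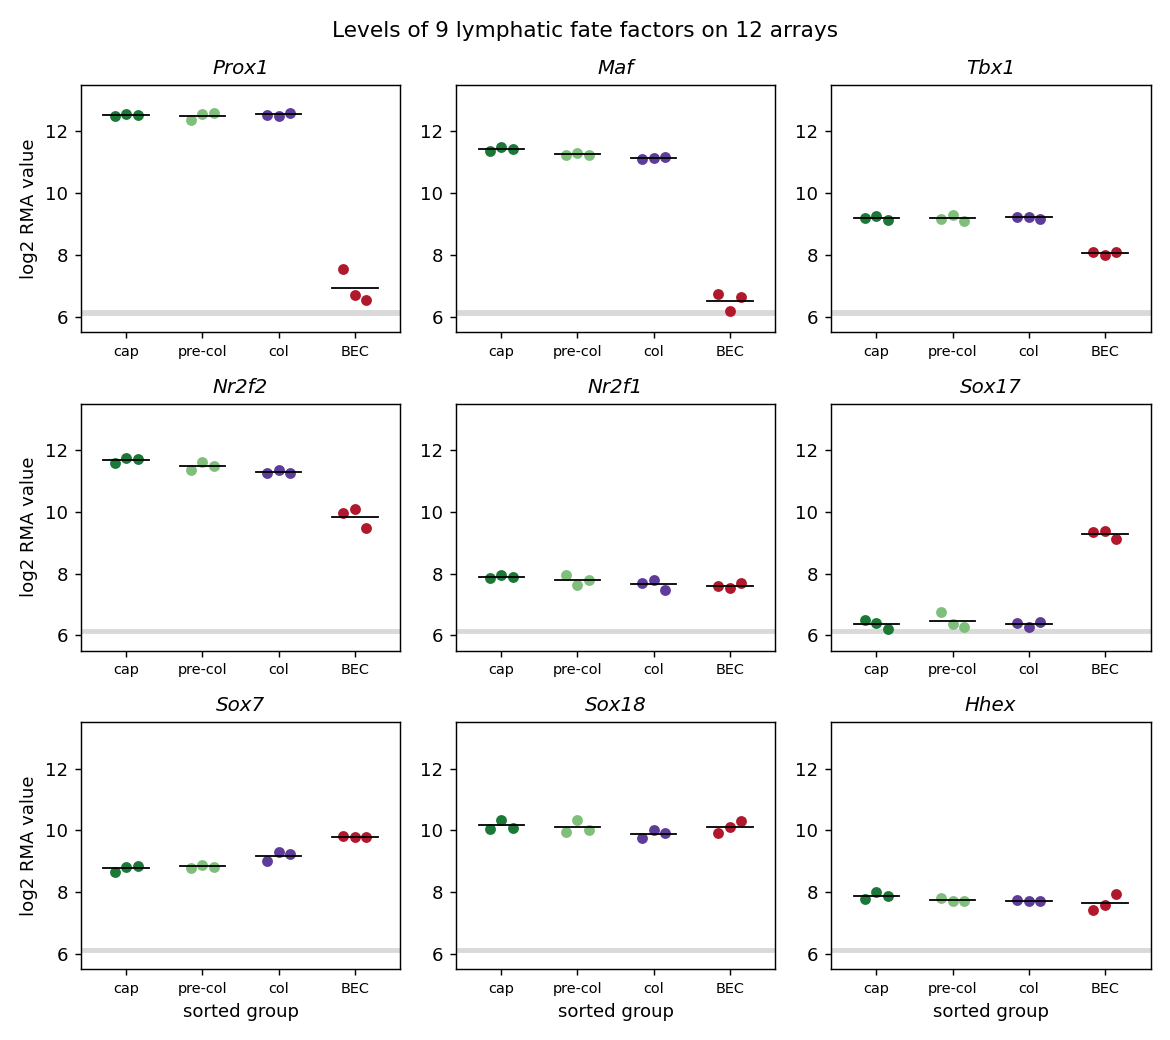
Log2 RMA value of each of the 9 genes (vertical axis) on each of 12 arrays (points), by sorted group (horizontal axis), with the group mean as a bar and the range of array medians, 6.06 to 6.17, as a grey band. Prox1, Maf, Tbx1 and Nr2f2 lie higher in the 3 LEC groups, and Sox17 and Sox7 lie lower there than in BEC. Sox18, Nr2f1 and Hhex overlap between LEC as a whole and BEC, while the cap LEC arrays of Nr2f1 lie above BEC.

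Lymphatic and blood endothelial cells were compared first, to ask which fate factors separate the lineages in the skin of young mice. Of the 8 members tested, limma called 5 at an adjusted p under 0.05 for the average LEC level minus BEC: Maf, Nr2f2 and Tbx1 were higher in LEC, and Sox17 and Sox7 were lower. Over all genes tested 22.7% were called, 12.1% as higher and 10.6% as lower. Without BEC replicate 1 the differences of the 5 genes were 4.86 for Maf, 1.70 for Nr2f2, 1.15 for Tbx1, -2.86 for Sox17 and -0.86 for Sox7, and without pre-col LEC replicate 1 they were 4.76, 1.67, 1.14, -2.93 and -0.87 in the same order, all still called. The median difference was 0.16 over the 8 members and -0.02 over all genes. Sox18, Nr2f1 and Hhex were not called. The same 5 genes were called in each LEC group against BEC, where 20.8% of all genes were called for cap LEC (11.2% higher, 9.6% lower), 15.6% for pre-col LEC (7.4% higher, 8.2% lower) and 16.3% for col LEC (8.32% higher, 7.96% lower).

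Prox1, which specifies lymphatic endothelium and maintains it, was at 12.50, 12.57 and 12.53 in cap LEC, 12.38, 12.56 and 12.59 in pre-col LEC, 12.53, 12.51 and 12.60 in col LEC, and at 7.55, 6.70 and 6.55 in BEC. All 9 LEC arrays lay between 12.38 and 12.60, far above the BEC arrays. Highest in BEC was replicate 1, the array with a higher mean of lymphatic markers, a list that holds Prox1 itself. The part of LEC in that array was not tested. The Prox1 difference of LEC minus BEC was 5.60 on the log2 scale, with only 1 of the 19712 genes showing a larger one, and it describes the sort. As BEC replicates 2 and 3 lay below the 75th percentile of the negative controls, its size may be understated.

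Maf encodes c-MAF, a leucine zipper factor that lymphatic endothelium is known to express. It was at 11.37, 11.50 and 11.43 in cap LEC, 11.23, 11.29 and 11.23 in pre-col LEC, 11.10, 11.15 and 11.16 in col LEC, and at 6.73, 6.17 and 6.65 in BEC. Every LEC array lay above every BEC array, and the BEC values were close to the array medians. The difference of LEC minus BEC was 4.75 ± 0.10 (SE, n = 9 LEC and 3 BEC arrays, limma adjusted p = 2.85e-11). As the BEC values lay below the 75th percentile of the negative controls, the size of this difference may be understated. Macrophages also express Maf. Of their 10 markers, Ptprc (4.25 to 4.94), Adgre1 (5.28 to 5.54) and Itgam (5.85 to 6.10) lay below the array median on all 12 arrays. Csf1r, Cd68, Fcgr1, Cd14, C1qa and C1qb lay below it on none, with Cd68 at 7.60 to 9.31. The part of macrophages in the Maf values was not tested. Summed over the 10 macrophage markers, the linear signal was 1948 to 2289 in cap LEC, 1628 to 1867 in pre-col LEC, 1294 to 1619 in col LEC and 1019 to 1258 in BEC, with Mrc1, which LEC also express, at 7.99 to 10.29 in LEC and at 5.75 to 5.84 in BEC.

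Nr2f2 encodes COUP-TFII, the venous factor and partner of PROX1. Its values were 11.59, 11.74 and 11.72 in cap LEC, 11.36, 11.61 and 11.48 in pre-col LEC, 11.24, 11.35 and 11.26 in col LEC, and 9.95, 10.08 and 9.48 in BEC. LEC and BEC arrays did not overlap, and unlike those of Maf the BEC values stood well above the array medians. LEC exceeded BEC by 1.65 ± 0.11 (SE, limma adjusted p = 2.76e-07), or 3.13-fold with a 95% interval of 2.65 to 3.69. Nr2f1 encodes the related receptor COUP-TFI. It ranged from 7.47 to 7.96 on the LEC arrays and from 7.53 to 7.70 on the BEC arrays, so LEC as a whole overlapped BEC. The cap LEC arrays alone, at 7.86, 7.94 and 7.88, lay above BEC. Cap LEC minus BEC was 0.28 ± 0.10 (SE, limma adjusted p = 0.0734), with a 95% interval from 0.06 to 0.51, and was not called. For the average LEC level minus BEC, the Nr2f1 difference of 0.17 ± 0.08 was not called (adjusted p = 0.173). Its 95% interval from -0.01 to 0.36 lies apart from that of Nr2f2, from 1.41 to 1.88.

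Tbx1, a T-box factor required in mice for lymphatic vessel growth and for expression of the VEGF-C receptor gene Flt4, was at 9.19, 9.26 and 9.12 in cap LEC, 9.17, 9.29 and 9.10 in pre-col LEC, 9.22, 9.24 and 9.17 in col LEC, and at 8.09, 7.99 and 8.09 in BEC. The LEC arrays lay between 9.10 and 9.29, above all BEC arrays. The difference was 1.14 ± 0.06 (SE, limma adjusted p = 4.79e-08), 2.2-fold with a 95% interval of 2 to 2.42. Hhex, a homeobox factor that acts upstream of Prox1 in zebrafish and mouse embryos, ranged from 7.70 to 8.01 in LEC and from 7.42 to 7.93 in BEC. It differed by 0.14 ± 0.09 (adjusted p = 0.33), with a 95% interval from -0.07 to 0.34. Without BEC replicate 3, its highest BEC array, the difference was 0.28 (adjusted p = 0.027), and without BEC replicate 1 it was 0.02 (adjusted p = 0.869). For cap LEC minus BEC it was 0.24 (adjusted p = 0.17), and it was called with array weights (0.33, adjusted p = 0.034) and without BEC replicate 3 (0.38, adjusted p = 0.0134). Without BEC replicate 1 it was 0.12 (adjusted p = 0.428).

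The 3 SOXF factors, which bind the same DNA motif through a shared HMG box, fell into separate patterns. Sox17, known from arterial endothelium, was at 6.49, 6.40 and 6.21 in cap LEC, 6.74, 6.36 and 6.26 in pre-col LEC, 6.40, 6.28 and 6.43 in col LEC, and at 9.33, 9.39 and 9.12 in BEC. The LEC arrays all lay below the BEC arrays and close to the array medians. The difference of LEC minus BEC was -2.88 ± 0.10 (SE, limma adjusted p = 1.37e-09). As the LEC values lay below the 75th percentile of the negative controls, its size may be understated. The highest of the LEC values came from pre-col LEC replicate 1, where blood endothelial markers were also highest among LEC arrays, at a list mean of 8.66 against 7.89 to 8.20 on the other LEC arrays.

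Sox7, another SOXF factor of endothelium, was at 8.64, 8.83 and 8.86 in cap LEC, 8.80, 8.88 and 8.83 in pre-col LEC, 9.0, 9.29 and 9.23 in col LEC, and at 9.83, 9.78 and 9.79 in BEC. The BEC arrays lay above every LEC array. Signal in LEC was above the array medians and the 75th percentile of the negative controls. Except on col LEC replicate 2, it lay below the 95th percentile of these controls. The difference of LEC minus BEC was -0.87 ± 0.07 (SE, limma adjusted p = 2.55e-06), 1.83-fold lower in LEC with a 95% interval of 1.64 to 2.05. Sox18, the factor that induces Prox1 in the mouse embryo, was at 10.06, 10.33 and 10.08 in cap LEC, 9.94, 10.35 and 10.03 in pre-col LEC, 9.75, 10.02 and 9.93 in col LEC, and at 9.91, 10.12 and 10.32 in BEC. The BEC arrays overlapped those of every LEC group, while the col LEC arrays lay just below the cap LEC arrays. The difference was -0.06 ± 0.11 (adjusted p = 0.713), and its 95% interval, from -0.31 to 0.18, holds no difference over 1.24-fold. The 95% intervals of the 3 SOXF differences, from -3.11 to -2.65 for Sox17, from -1.03 to -0.71 for Sox7 and as given for Sox18, do not overlap.

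**Figure D2:**
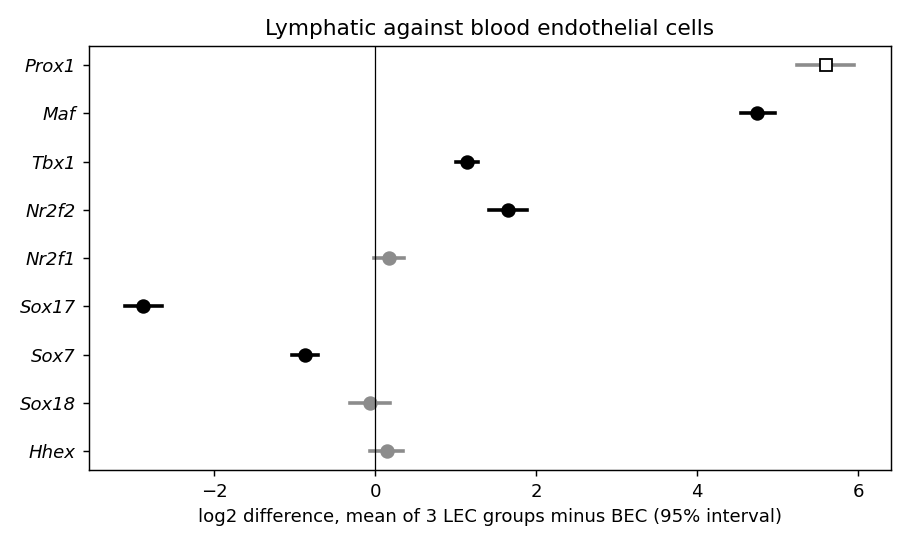
Log2 difference of the mean of 3 LEC groups minus BEC (horizontal axis) for each gene (vertical axis), with 95% intervals from limma. Black points passed the test, grey points did not, and the open square is Prox1, which the sort used. The values run from -2.88 for Sox17 to 5.60 for Prox1, and those of Sox17, Maf and Prox1 may be understated in size.

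Mural markers moved with this comparison: all 10 were called lower in LEC, with a median difference of -2.12, and a summed linear signal of 1109 to 1812 in cap LEC, 1438 to 4234 in pre-col LEC, 1224 to 1320 in col LEC and 7974 to 10249 in BEC. None lay below the array median throughout a group. Their part in the differences of the members was not tested. In sorted bulk samples, fewer cells with a transcript and less of it per cell cannot be told apart. Of the pan-endothelial markers, 6 of 10 were called lower and 1 higher in LEC (median -0.36), while the mean of the list was 11.34 to 11.59 on LEC arrays and 11.89 to 11.98 on BEC arrays. All 6 measured lymphatic markers, the sort genes among them, were called higher in LEC (median 5.28), and 6 of 7 blood endothelial markers were called lower (median -4.22).

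**Figure D3:**
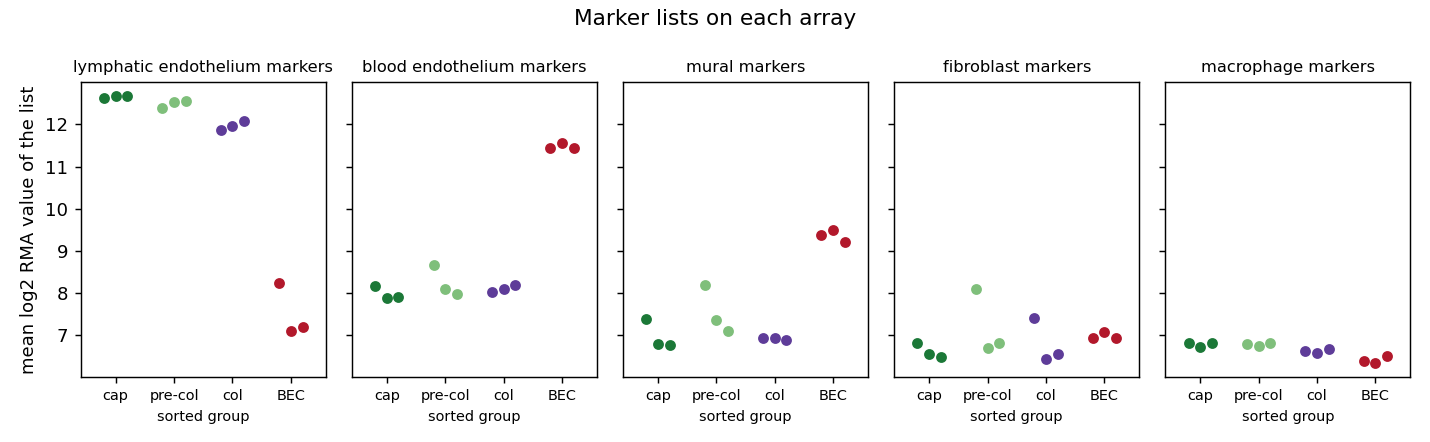
Mean log2 RMA value of 5 marker lists (vertical axis) on each array (points), by sorted group (horizontal axis). Lymphatic markers are at 11.86 to 12.68 on LEC arrays and 7.11 to 8.24 on BEC arrays, and mural markers at 6.77 to 8.20 on LEC arrays and 9.21 to 9.49 on BEC arrays.

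The LEC groups were then compared with each other, along the vessel tree that lymph follows. Limma called 0 of 9 members for col LEC minus cap LEC (1.65% of all genes were called, 0.659% as higher and 0.989% as lower), 0 for pre-col LEC minus cap LEC (0% of all genes) and 0 for col LEC minus pre-col LEC (0.304% of all genes, 0.122% as higher and 0.183% as lower). At an unadjusted p under 0.05 there were 4, 0 and 1 members, against 10.5%, 6.4% and 5.84% of all genes. Prox1 and Tbx1 varied little between LEC groups: Prox1 differed by 0.01 ± 0.20 and Tbx1 by 0.02 ± 0.08 for col LEC minus cap LEC, with 95% intervals from -0.42 to 0.45 and from -0.15 to 0.19. The fit pools the variance over the 4 groups, and the SD of Prox1 was at most 0.11 in an LEC group and 0.54 in BEC. Every LEC group was sorted as Prox1-GFP positive, and the part of this shared gate in the evenness of Prox1 was not tested.

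Sox7 came nearest to a call. Its values in col LEC, from 9.0 to 9.29, lay above those in cap LEC, from 8.64 to 8.86, and above those in pre-col LEC, from 8.80 to 8.88. Col LEC exceeded cap LEC by 0.40 ± 0.09 (SE, n = 3 arrays per group, adjusted p = 0.0524), or 1.32-fold. The difference of col LEC minus pre-col LEC was 0.34 ± 0.09 (adjusted p = 0.275) and that of pre-col LEC minus cap LEC 0.06 ± 0.09 (adjusted p = 0.896). Col LEC minus cap LEC passed the test in 6 of 22 alternative fits. Among them were the fit without col LEC replicate 1 (0.49, adjusted p = 0.0284) and that with a block for replicate number (0.40, adjusted p = 0.0473). Its adjusted p reached 0.185 when col LEC replicate 2 was left out. Fibroblast markers on col LEC replicate 1 had a list mean of 7.41, against 6.45 and 6.55 in replicates 2 and 3; their part in the Sox7 values was not tested.

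Nr2f2 and Maf had the opposite order, with means of 11.68 ± 0.08, 11.48 ± 0.13 and 11.28 ± 0.06 for Nr2f2 and of 11.43 ± 0.07, 11.25 ± 0.04 and 11.14 ± 0.03 for Maf in cap, pre-col and col LEC (SD, n = 3 each). The arrays of col LEC and cap LEC did not overlap for either gene, nor for Sox7, Sox18, Nr2f1 or Hhex. The share of all genes without such overlap was not computed, so this separation of arrays is a description without a test. The difference of col LEC minus cap LEC was -0.40 ± 0.13 for Nr2f2 (adjusted p = 0.243) and -0.30 ± 0.12 for Maf (adjusted p = 0.393), and neither passed the test. Sox18 was at -0.25 ± 0.14 (adjusted p = 0.562), Nr2f1 at -0.24 ± 0.10 (adjusted p = 0.428) and Hhex at -0.16 ± 0.12 (adjusted p = 0.681), so that 5 of 9 members had differences below 0; the median was -0.16 over the members and 0.03 over all genes. For scale, Lyve1, on which these groups were sorted, was at -2.64 in the same contrast.

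**Figure D4:**
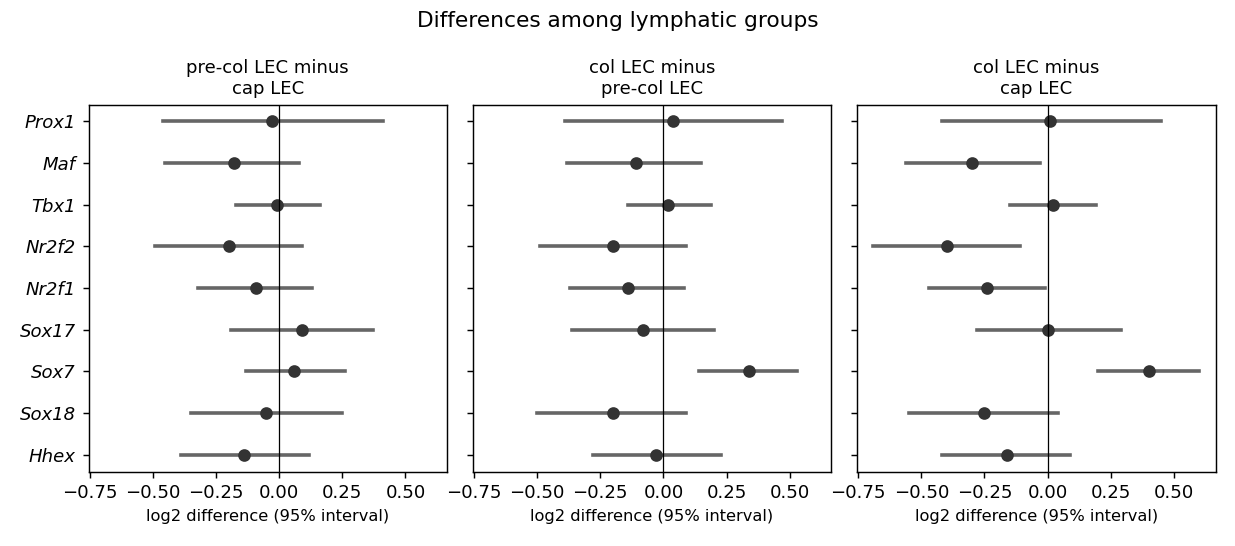
Log2 differences between LEC groups (horizontal axes) for each gene (vertical axis), with unadjusted 95% intervals, in 3 panels by comparison. No gene passed the adjusted test. The differences of Sox7 are 0.34 and 0.40 in the panels with col LEC minus another group, and that of Nr2f2 is -0.40 for col LEC minus cap LEC.

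In the order of the 4 group levels, the steps between neighbours that passed the test were each between an LEC group and BEC. The arrays of col LEC and pre-col LEC did not overlap for Sox7, Nr2f2 or Maf either, but these steps were not called. Here too the share of all genes without overlap was not computed, and the separation is a description without a test. Maf, Nr2f2, Nr2f1 and Hhex shared the order cap LEC, pre-col LEC, col LEC, BEC from high to low, and the step of col LEC over BEC was called for Maf (4.62 ± 0.12) and Nr2f2 (1.45 ± 0.13) but not for Nr2f1 (0.05 ± 0.10) or Hhex (0.07 ± 0.12). Tbx1 ran from col LEC over cap LEC and pre-col LEC to BEC, with 1 called step, pre-col LEC minus BEC, of 1.13 ± 0.08. Sox17 and Sox7 had BEC on top, and the nearest group was pre-col LEC for Sox17 (-2.83 ± 0.13 against BEC) and col LEC for Sox7 (-0.63 ± 0.09 against BEC, adjusted p = 0.000354). Cap LEC was farther from BEC for Sox7, at -1.03 ± 0.09. For Sox18 no pair of groups was called.

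Genes with the most similar profile were sought among 13939 tested genes by the root mean square difference of the 4 centred group means. Nearest to Prox1 were Mmrn1 (0.115), Sema3d (0.120) and Tc2n (0.218). Nearest to Maf was Pdpn (0.081), the podoplanin gene whose product was used in the sort, followed by the polarity gene Pard6g (0.116) and Tnfaip8l3 (0.253). Car8 (0.037), Adh1 (0.057) and Iigp1 (0.081) lay nearest to Sox17. For Sox7 they were Rasd1 (0.034), the Notch ligand gene Jag1 (0.034) and Tmod3 (0.036), and Jag1 had means of 9.54, 9.55, 9.87 and 10.47 in cap LEC, pre-col LEC, col LEC and BEC. Rtkn (0.030), Ctdspl (0.032) and Thy1 (0.034) were nearest to Nr2f2, and Wls (0.014), Tiam2 (0.018) and Gramd3 (0.025) to Tbx1. Among the members, Sox18, Nr2f1 and Hhex differed least between group means. Their nearest genes, Gga3 (0.009), Ccdc6 (0.007) and Tmem43 (0.006) in first place, were not called between LEC and BEC either.

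Other genes of the lymphatic programme were taken from a list of 16, of which 15 were tested. In LEC 10 were higher than in BEC and 1 was lower, with a median of 1.22 (12.1% and 10.6% of all genes). The 10 include Pdpn (4.91 ± 0.10) and Lyve1 (5.21 ± 0.16), whose products were used in the sort. Of the other 13 genes, 8 were higher and 1 lower, with a median of 0.99. Sema3d (5.56 ± 0.29), which encodes a semaphorin, Mmrn1 (5.36 ± 0.53) and Reln (5.35 ± 0.23), the reelin gene, led, and Fgfr3, a growth factor receptor gene that PROX1 is known to induce, was lower in LEC (-0.63 ± 0.08, adjusted p = 9.71e-05). Within LEC, 2 genes other than Lyve1, on which the groups were sorted, were lower in col LEC than in cap LEC (0.989% of all genes): Ackr2 (-1.23 ± 0.19, adjusted p = 0.00605), a chemokine-scavenging receptor gene, and Flt4 (-0.49 ± 0.11, adjusted p = 0.048).

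Of 33 tested transcription factors with roles in endothelium at large, 12 were higher and 14 lower in LEC than in BEC, with a median of -0.00, where 12.1% of all genes were higher and 10.6% lower. Higher in LEC were Meis2 (2.11 ± 0.08), Nfatc1 (1.30 ± 0.07), a factor of valve formation, Foxc2 (0.99 ± 0.11), a forkhead factor of collecting vessels and valves that is also in the list above, and Lyl1 (0.80 ± 0.12). Lower were Meox2 (-2.15 ± 0.12), Tbx3 (-1.41 ± 0.07), Irf1 (-1.23 ± 0.15), an interferon-regulated factor, and Epas1 (-1.20 ± 0.07), which encodes HIF-2 alpha. Between col LEC and cap LEC 3 were lower in col LEC and 0 were higher, where 0.989% of all genes were lower and 0.659% higher. The 3 were Meox2 (-0.66 ± 0.15, adjusted p = 0.0494), Mef2c (-0.48 ± 0.08, adjusted p = 0.0132) and Id1 (-0.45 ± 0.10, adjusted p = 0.0472). Meox2, with means of 6.54 in col LEC and 7.20 in cap LEC, lay in the range of little signal.

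Relatives of the members were taken as the last list. Of 20 tested genes of the PROX, nuclear receptor, SOX, MAF and T-box families, 2 were higher and 4 lower in LEC than in BEC, with a median of -0.08, where 22.7% of all genes were called. Sox4 (1.26 ± 0.12), a SOX gene outside the SOXF group, and Maff (0.50 ± 0.11), a small MAF gene, were higher. The T-box genes Tbx3, Tbx15 (-0.72 ± 0.11) and Tbx2 (-0.52 ± 0.07) were lower, opposite in direction to Tbx1, as was Sox13 (-0.72 ± 0.09). Means in LEC and BEC were 6.47 and 7.88 for Tbx3, 6.34 and 7.05 for Tbx15, and 7.43 and 7.94 for Tbx2. Tbx15 in both and Tbx3 in LEC thus lay in the range of little signal. None of the 20 was called between any LEC groups. A further 5 relatives did not pass the filter on dim values.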

How the data were processed

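The deposited table holds log2 values after RMA, per the submitters' processing notes. Per the labels' protocols, an input of 500 pg RNA was amplified for Affymetrix whole-transcript arrays. No source used here gives the software version, annotation or build, and RMA compresses differences of weak signals. Genes were named from the platform annotation, updated by Entrez ID with a RefSeq table. Where several rows named a gene, the brightest stood for it, which gave 30807 genes; the 19712 that lay above the array median on at least 3 arrays were tested.

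Group means of all 12 arrays were fitted with limma 3.58.1 (lmFit, eBayes, R 4.3.3). Tests were two-sided, with Benjamini-Hochberg adjustment over all genes tested and calls at adjusted p under 0.05. Errors are moderated standard errors or standard deviations. The number of arrays limits the precision. The fit was tested on simulated data. Plots used matplotlib 3.10.9.

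The members, gene lists and the rule for named genes were chosen with earlier results of these data known, and the TATA, CCAAT box, ETS and GATA motifs were added after the sequences were seen. The rule named all members, 3 nearest profiles each, and up to 4 called genes per list and direction. Marker lists of keratinocytes, skeletal muscle and Schwann cells or melanocytes were checked as well: 3 of 6, 1 of 8 and 1 of 6 tested genes were called lower in LEC, and 0 higher. In fibroblast and macrophage lists 1 of 7 and 1 of 7 tested genes were called lower, and 0 and 1 higher. Alternatives covered filters, normalization, row choice, array weights, variance models, arrays in the fit and a block for replicate number.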

Additional observations from a re-analysis of the deposited data

How the results depend on the processing

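Over 21 alternatives for LEC mean minus BEC and 22 for each LEC group minus BEC, Maf, Nr2f2, Tbx1, Sox17 and Sox7 kept their direction and call. Of 1290 recomputed member values, 0 lost a call, 11 gained one and 39 turned sign, none of them called. For col LEC minus cap LEC, members called were 0 as reported, 1 (Sox7) with the dim filter on all 12 arrays, quantile normalization, cyclic loess or the replicate block (adjusted p = 0.0473), 2 (Sox7 and Nr2f2) with array weights, and 0 to 1 when 1 array was left out (Sox7 without col LEC replicate 1, Nr2f2 without BEC replicate 3); the cause was not tested. Genes called there were 325 as reported, 795 with array weights, and 183 to 352 when 1 array was left out, with the lowest without cap LEC replicate 3. For col LEC minus pre-col LEC they were 60 as reported, 154 with array weights, 25 (without col LEC replicate 1) to 64 when 1 array was left out and 5 with only the groups compared, and for pre-col LEC minus cap LEC 0 as reported, 10 with cyclic loess, 28 with array weights and 3 with the block. Replicate numbers were not taken to pair the arrays, as the labels name no pairing. Deviations of 18 same-number pairs correlated at -0.0944 to 0.209 (median 0.0917, 7 over 0.1), against a median of -0.0352 for different numbers. Of 12 arrays, 8 correlated best with their own number, so these values do not exclude a pairing. With the block for replicate number, 375 genes were called for col LEC minus cap LEC.

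Signs turned as follows, the cause not tested. For col LEC minus cap LEC, Sox17 was -0.04 with quantile and -0.04 with cyclic loess normalization and -0.01 with array weights, and Tbx1 -0.02 with array weights. For pre-col LEC minus cap LEC, Prox1 was 0.02 with cyclic loess, Sox17 -0.01 with array weights, and Tbx1 0.05 with quantile and 0.03 with cyclic loess. Sox17 was 0.000235 with array weights for col LEC minus pre-col LEC. Sox18 was -0.05 with quantile and -0.08 with cyclic loess for cap LEC minus BEC, and 0.00369 with array weights for pre-col LEC minus BEC. Leaving out 1 array gave, for LEC mean minus BEC, Sox18 from -0.17 to 0.04. For col LEC minus cap LEC it gave Prox1 from -0.01 to 0.03, Sox17 from -0.07 to 0.07 and Tbx1 from -0.02 to 0.05. For pre-col LEC minus cap LEC it gave Prox1 from -0.06 to 0.04, Sox18 from -0.17 to 0.04, Sox17 from -0.06 to 0.19, Sox7 from -0.00446 to 0.11 and Tbx1 from -0.06 to 0.04. For col LEC minus pre-col LEC it gave Prox1 from -0.03 to 0.08, Sox17 from -0.18 to 0.06, Tbx1 from -0.02 to 0.08 and Hhex from -0.05 to 0.01. Against BEC it gave Sox18 from -0.06 to 0.14 for cap LEC and from -0.13 to 0.09 for pre-col LEC, Hhex from -0.01 to 0.24 for pre-col LEC and from -0.04 to 0.22 for col LEC, and Nr2f1 from -0.02 to 0.14 for col LEC. Weak signal limits Sox17 in LEC and Maf and Prox1 in BEC, whose values lie near the array medians.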
